A study of Homo sapiens with 6 samples.

Results

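The collagen genes of Het1A, a human oesophageal epithelial line immortalised with SV40 large T antigen, were examined for which chains the line transcribes and whether repeated acid and bile acid contact changes them. The members are the protein-coding genes of the deposited count table whose symbol is COL, a number, A and a number. There are 44 of them among 58735 genes. The 3 bile acid libraries come from cells exposed for 10 min a day on 5 days to KSFM at pH 4 with 100 μM mixed bile acids (deoxycholic, glycochenodeoxycholic, glycodeoxycholic, glycocholic and taurocholic). The 3 control libraries come from cells given 0.1% DMSO as vehicle, and whether their medium was also acidified is not stated. All cells were held in 1% serum from 48 h before treatment and collected 24 h after the last exposure. Het1A is 1 line, so the libraries differ by culture and not by donor. The labels number them as biological replicates without saying how cultures were kept apart, and p-values measure only the spread between these libraries.

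Collagens are secreted proteins built from 3 chains wound into a triple helix, and several types need chains from more than 1 gene. Fibrillar collagens give connective tissue its tensile strength, type IV collagen forms the sheet of the basement membrane under an epithelium, and type VII collagen anchors that sheet to the tissue below. Type VI collagen makes beaded filaments around cells, and the fibril-associated types IX and XII coat the surface of fibrils. Interstitial fibrillar collagens are mainly made by fibroblasts, and basement membrane collagens by both epithelium and stroma.

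Total counts were 27789590, 27008714 and 28497721 in bile acid libraries 1 to 3 and 26218597, 21006677 and 21981806 in controls 1 to 3. The floor of 3 counts was equal to 0.105 to 0.143 CPM, where CPM scales a count to a common library total. This floor uses the totals above. The other CPM values use totals adjusted by a scaling factor, 0.851 in control 2 and 1.01 to 1.069 in the other libraries. On that scale 3 counts in control 2 come to a higher CPM. Floors cover counting error only. Control 2 stood apart: it had a count for 19101 genes, against 24174 to 25190 genes in the bile acid libraries and 24300 to 25337 in the other two controls. The comparisons of collagen genes are therefore given with and without it. Of the keratins, KRT8, KRT18 and KRT19 were detected at 52.7 to 658 CPM in every library, while KRT5, KRT14 and TP63, markers of the basal squamous layer, did not exceed 0.511 CPM. Of 10 fibroblast markers, DPT and COL3A1 had 0 counts in every library, LUM had 1 count in all, and DCN did not exceed 0.464 CPM, while THY1 ranged over 73.8 to 179 CPM, PDGFRB over 9.13 to 23.5 CPM and PDGFRA over 0 to 1.21 CPM. Of 4 endothelial markers CDH5 had 0 counts throughout, PECAM1 and VWF at most 9 and 7 counts, and KDR 6 to 49 counts. Of 4 leukocyte markers PTPRC and CD3E had 0 counts throughout and CD68 at most 3, while CD14 had 9.16 to 16.1 CPM in every library.

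The line transcribed 15 collagen genes at a mean of at least 1 FPKM, fragments scaled to gene length and library total, which allows genes of different length to be compared. A further 17 passed the filter on low counts with a lower mean, from 0.0544 to 0.749 FPKM, and are called low. Another 6 failed the filter but had more than 3 counts in some library, here called trace. The last 6 were silent, with at most 3 counts in any library. The 15 expressed genes span beaded filaments, fibrils, basement membrane networks and fibril-associated types, and no transmembrane collagen is among them.

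Pairs of type IV genes lie head to head and are read in opposite directions from a shared stretch, which makes their sequence informative beside their levels. The expressed pairs were COL4A1 with COL4A2 and COL4A5 with COL4A6, and the pair COL4A3 with COL4A4 was low. The stretches below are from RefSeq (GRCh38.p14, plus strand), the first whole and the others where the promoter windows of both genes overlap. Capitals mark a CCAAT box (CCAAT, or ATTGG on the other strand) or a GC box (GGGCGG, or CCGCCC on the other strand). The positions are chr13:110307158-110307283, chrX:108439588-108439708 and chr2:227164374-227164455.
COL4A1 and COL4A2: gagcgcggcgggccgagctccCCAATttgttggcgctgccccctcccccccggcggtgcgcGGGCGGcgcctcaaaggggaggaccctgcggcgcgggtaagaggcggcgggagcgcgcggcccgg
COL4A5 and COL4A6: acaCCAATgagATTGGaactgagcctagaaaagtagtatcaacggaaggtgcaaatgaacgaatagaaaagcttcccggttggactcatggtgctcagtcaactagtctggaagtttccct
COL4A3 and COL4A4: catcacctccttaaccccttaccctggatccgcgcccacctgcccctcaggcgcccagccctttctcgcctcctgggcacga
In these windows both expressed pairs held a CCAAT box, and the stretch of the low pair held neither motif. That stretch is 82 of the 418 bases between the starts of the low pair, and outside it the promoter window of COL4A3 held 1 GC box. The stretch of COL4A5 and COL4A6 is likewise only 121 of the 379 bases between their starts. The CCAAT box did not follow level beyond these pairs. Windows of silent COL9A1, COL10A1 and COL11A1 and of trace COL17A1 and COL28A1 held one, and those found for expressed genes outside type IV held none. GC content of the stretches was 80.2%, 44.6% and 67.1% in the order shown.

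Partner chains of type VI and type IX differed widely in level, so the 100 bases before the start of an expressed and a low or silent partner of each are shown, read in the direction of the gene. Besides the motifs above, capitals mark a TATA box (TATAAA). The positions are chr21:46098012-46098111 on the plus strand for COL6A2, chr2:237414165-237414264 on the minus strand for COL6A3, chr1:40317287-40317386 on the minus strand for COL9A2 and chr6:70303085-70303184 on the minus strand for COL9A1.
COL6A2: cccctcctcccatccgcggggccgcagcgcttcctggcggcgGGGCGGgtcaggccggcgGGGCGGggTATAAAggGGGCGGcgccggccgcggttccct
COL6A3: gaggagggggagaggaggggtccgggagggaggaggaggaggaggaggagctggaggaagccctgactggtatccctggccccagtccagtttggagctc
COL9A2: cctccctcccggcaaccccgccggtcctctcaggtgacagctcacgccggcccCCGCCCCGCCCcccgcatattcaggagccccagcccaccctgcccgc
COL9A1: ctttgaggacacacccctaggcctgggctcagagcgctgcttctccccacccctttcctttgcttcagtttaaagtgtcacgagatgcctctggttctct
The expressed genes COL6A2 and COL9A2 held 3 and 2 GC boxes in these bases, those of COL9A2 overlapping, and the 2 other stretches held none of the motifs. The GC box did not mark expressed genes alone. The promoter window of trace COL6A6, also a type VI gene, held a GC box and a TATA box. Windows of silent COL11A1 and of trace COL21A1 and COL24A1 held a GC box.

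Promoter windows, from 250 bases before to 50 after a start, were found for 32 of the 44 genes, in 44 windows. Expressed COL1A1, COL5A2, COL6A1 and COL9A3 had none. The GC box was in 54.5% of collagen windows and 45.0% of all 35116 windows. The TATA box was in 18.2% of collagen and 11.5% of all windows, the CCAAT box in 31.8% and 34.6%. The SMAD box CAGACA was in 11.4% of collagen and 16.9% of all windows, and the AP-1 site TGANTCA in 2.27% and 7.71%. Both strands were searched, and a match is a run of letters and not a shown site. By level, 12 of 14 windows of expressed genes, 8 of 15 of low genes and 4 of 15 of trace or silent genes held a GC box. These windows belong to only 11, 12 and 9 genes. A gene with several starts, such as COL10A1 or COL21A1, counts for each of them, so the shares are of windows and not of genes. By gene, 21 of 32 held a GC box in at least 1 window. Median GC content was 72.85%, 66.7% and 52.3% in the same order, and the ranges overlapped (43.7% to 86.7%, 56.3% to 76.0% and 32.3% to 67.0%).

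Type VI genes were the most abundant. COL6A1 (chr21:45981737-46005050, plus strand, GRCh38) had 38.3, 31.7 and 43.1 FPKM in bile acid libraries 1 to 3 and 49.6, 23.2 and 33.8 FPKM in controls 1 to 3. COL6A2, its neighbour 93.0 kb away, had 20.4, 19.9 and 22.8 FPKM in the bile acid libraries and 25.4, 15.4 and 17.5 FPKM in the controls. Control 1 was the highest and control 2 the lowest library for both genes, with the bile acid libraries between them. Together the beaded filament genes gave 46.3% ± 1.9 of the summed collagen FPKM in bile acid libraries and 49.0% ± 3.2 in controls (SD, n = 3 each).

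COL6A3, whose chain joins the other two in the usual type VI molecule, was low, with 2.96, 2.67 and 3.48 CPM in bile acid libraries and 1.94, 0.616 and 3.11 CPM in controls. Per length, COL6A1 exceeded it 298, 274 and 285 times in bile acid libraries and 574, 870 and 245 times in controls. The 870 of control 2 rests on 11 COL6A3 counts, in a library whose values fell with gene length. Exons of COL6A3 sum to 19633 bp and those of COL6A1 to 5343 bp. The groups overlapped because control 3 lay below the bile acid libraries, so the lower mean of the bile acid libraries does not separate from the spread of the controls. Gene lengths here sum all annotated exons of a gene. With the longest coding transcript as length, an alternative added after the data were seen, the mean ratio was 197 in bile acid libraries and 388 in controls. Controls 1 and 3 had 396 and 169, on both sides of the bile acid mean, and control 2 had 600. COL6A5 had 0 counts in every library. COL6A6, a trace gene that failed the filter and was not tested, had 4, 3 and 13 counts in bile acid libraries and 2, 0 and 0 counts in controls. Its bile acid libraries all lay above its controls, at counts near the floor.

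COL1A1 (chr17:50183289-50201632, minus strand), the major chain of type I collagen, had the highest mean level after type VI and the most variable of the top genes. It had 231, 92.9 and 209 CPM in bile acid libraries 1 to 3, against 192, 42.7 and 71.8 CPM in controls 1 to 3. Bile acid 2 lay near the lower controls and control 1 near the higher bile acid libraries, so the groups overlapped. The log2 fold change, bile acid over control, was 0.80 ± 0.58 (SE; edgeR, adjusted p = 0.911) and 0.44 ± 0.41 without control 2 (edgeR, adjusted p = 0.858). Without control 1 it was 1.64 (edgeR, adjusted p = 0.702), so each of these controls moves the value by over 1.5 times. In that fit COL1A1, COL5A3 and COL8A2, 3 of 32 collagen genes, were higher at an unadjusted p under 0.05, against 2.3% of all genes, and 0 were called. The labels do not say whether same-numbered libraries are pairs, but each COL1A1 bile acid value lay above the control of its number. So did those of other tested collagen genes, among them COL2A1, COL4A4, COL5A3, COL6A3, COL8A1 and COL11A2. The share of all genes with this order was not counted. With the number as a block, COL1A1 had 0.98 (log2 fold change; edgeR, unadjusted p = 0.0102, adjusted p = 0.756). There 1 of 32 collagen genes, COL1A1, had an unadjusted p under 0.05, against 1109 of 17743 genes.

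Its partner COL1A2 was silent: it had 0 counts in all 3 bile acid libraries, and 0, 0 and 2 counts in controls 1 to 3. Against the floor of 3 counts per library, COL1A1 was at least 2452-fold, 962-fold and 2280-fold higher than COL1A2 per length in bile acid libraries 1 to 3, and at least 2026-fold and 288-fold higher in controls 1 and 2. These bounds hold for summed exons, 9819 bp for COL1A1 and 11156 bp for COL1A2. By longest coding transcript, 6727 and 5411 bp, they would be lower. COL3A1, the chain of type III collagen, had 0 counts in every library, and COL1A1 was at least 587-fold to 1497-fold higher in bile acid libraries and at least 176-fold to 1237-fold higher in controls. Silent COL3A1 lies 19.1 kb from COL5A2 on chromosome 2, which was expressed.

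COL9A2 and COL9A3, chains of the fibril-associated type IX collagen known from cartilage, were the fourth and the fifth genes by mean level. COL9A2 had 7.08, 8.45 and 8.64 FPKM in bile acid libraries and 9.80, 8.16 and 7.84 FPKM in controls. COL9A3 had 4.56, 6.30 and 7.34 FPKM in bile acid libraries and 8.19, 5.03 and 5.63 FPKM in controls. The libraries of both groups were interleaved, and control 2 was not the lowest for either gene. Their partner COL9A1 had 0 counts in all libraries. Per summed exon length, COL9A2 was thus at least 563-fold to 702-fold higher in bile acid libraries and at least 413-fold to 751-fold higher in controls. COL2A1, the cartilage fibril chain that type IX coats there, was low at 1.94 to 2.89 CPM in bile acid libraries and 1.62 to 2.80 CPM in controls.

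**Figure D1:**
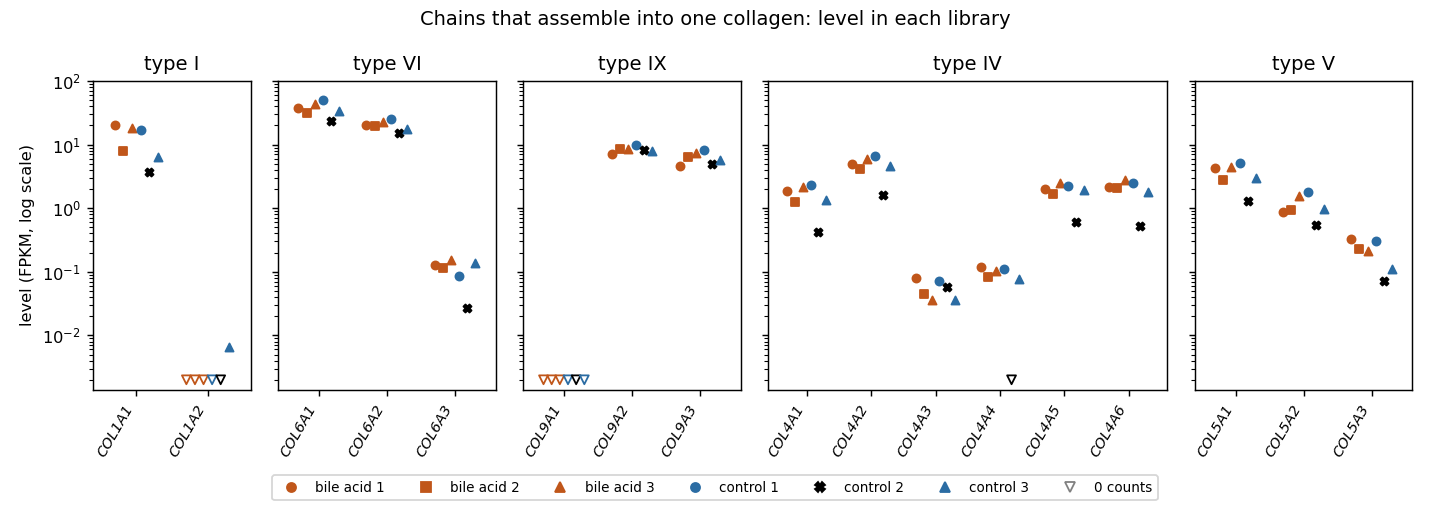
Level of each gene (vertical axis, FPKM, log scale) in each library for chains of 5 collagen types. Bile acid libraries are orange and stand left of the controls in blue and black, and open triangles mark libraries with 0 counts. COL1A2 and COL9A1 sit at or near 0 counts beside expressed partners, and COL6A3 lies far below COL6A1 and COL6A2 in all 6 libraries.

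The basement membrane genes were expressed as 2 of their 3 pairs. COL4A2 averaged 5.03 ± 0.95 FPKM in bile acid libraries and 4.33 ± 2.56 FPKM in controls, and COL4A1 1.76 ± 0.475 FPKM in bile acid libraries and 1.35 ± 0.945 FPKM in controls (SD, n = 3 each). Control 2, at 0.417 FPKM for COL4A1 and 1.63 FPKM for COL4A2, was the lowest library and control 1, at 2.31 and 6.72 FPKM, the highest. COL4A1 and COL4A2 make the common type IV molecule with more of the COL4A1 chain than of the COL4A2 chain, while the transcript ratio ran the other way. COL4A2 exceeded COL4A1 by 2.67, 3.28 and 2.76 times in bile acid libraries and by 2.91, 3.91 and 3.46 times in controls. Per longest coding transcript the mean ratio was 3.87 in bile acid libraries and 4.57 in controls.

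COL4A6 had 23.2, 22.3 and 30.5 CPM in bile acid libraries and 26.1, 5.66 and 19.0 CPM in controls, and COL4A5 27.7, 23.3 and 34.6 CPM in bile acid libraries and 30.8, 8.34 and 25.95 CPM in controls. Control 2 was far below the other 5 libraries for both, which overlapped. COL4A5 and COL4A6 were close to equal per length, with a ratio of 0.934, 0.817 and 0.889 in bile acid libraries and 0.924, 1.15 and 1.07 in controls. Control 1 lay within the bile acid range and controls 2 and 3 above it. Per longest coding transcript COL4A5 exceeded COL4A6 in every library, by 1.24, 1.09 and 1.18 times in bile acid libraries and 1.23, 1.54 and 1.42 times in controls. COL4A3 and COL4A4, known from the kidney filter, were low at mean levels of 0.0544 and 0.0828 FPKM. Both members of each head-to-head pair were thus in the same level class, expressed or low, a description of 3 pairs.

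The remaining expressed genes were in other classes. COL18A1, a multiplexin of basement membranes that carries endostatin, had 55.1, 53.7 and 71.2 CPM in bile acid libraries and 76.7, 24.5 and 50.5 CPM in controls. Of its exonic bases 16.43% overlap SLC19A1 on the opposite strand, and strand use in the counting is not stated, so its level is uncertain. COL7A1 (chr3:48564073-48595267, minus strand), the anchoring fibril of squamous epithelia, had 22.5, 21.9 and 27.0 CPM in bile acid libraries and 24.5, 29.5 and 16.0 CPM in controls. It was the one expressed gene with its highest value in control 2.

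COL12A1 (chr6:75084326-75206051, minus strand), a fibril-associated chain, had 76.6, 51.7 and 93.5 CPM in bile acid libraries and 145, 20.9 and 77.9 CPM in controls. The controls lay on both sides of all bile acid libraries. COL8A2, a short-chain network collagen, had 23.0, 19.4 and 26.7 CPM in bile acid libraries and 27.1, 11.4 and 17.0 CPM in controls, and COL5A1, a fibrillar chain that sets fibril width, 57.1, 36.4 and 58.0 CPM in bile acid libraries and 65.2, 16.9 and 39.0 CPM in controls. COL5A2, its partner, had 7.78, 8.26 and 13.7 CPM in bile acid libraries and 15.5, 4.82 and 8.39 CPM in controls. For these 4 genes control 1 was the highest library and control 2 the lowest.

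Low genes came from most classes. COL8A1, the partner of COL8A2, had 13.4, 5.92 and 8.73 CPM in bile acid libraries and 9.13, 2.46 and 8.57 CPM in controls. COL27A1, a fibrillar chain, had 8.74, 8.74 and 14.8 CPM in bile acid libraries and 16.6, 5.21 and 10.5 CPM in controls. COL16A1, a fibril-associated chain, had 5.14, 3.00 and 3.96 CPM in bile acid libraries and 3.31, 4.03 and 5.45 CPM in controls. The groups overlapped in all of these. COL4A4, COL14A1 and COL20A1 had 0 counts in control 2 and 0.694 to 1.98 CPM in bile acid libraries, against 0.852 to 1.47 CPM in controls 1 and 3.

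The trace genes included COL17A1, the hemidesmosome collagen of basal keratinocytes, with 11, 8 and 2 counts in bile acid libraries and 15, 0 and 5 counts in controls. COL21A1 had 9, 8 and 8 counts in bile acid libraries and 11, 0 and 11 counts in controls. COL24A1 had 1, 10 and 7 counts in bile acid libraries and 4, 0 and 2 counts in controls. COL19A1 and COL28A1 had at most 5 counts in any library, and all 6 trace genes had 0 counts in control 2. Among the silent genes, COL10A1 of growth plate cartilage and COL11A1 of cartilage fibrils had up to 3 counts in bile acid libraries and 0 counts in every control, values at the floor, where a difference was not detectable at this depth.

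**Figure D2:**
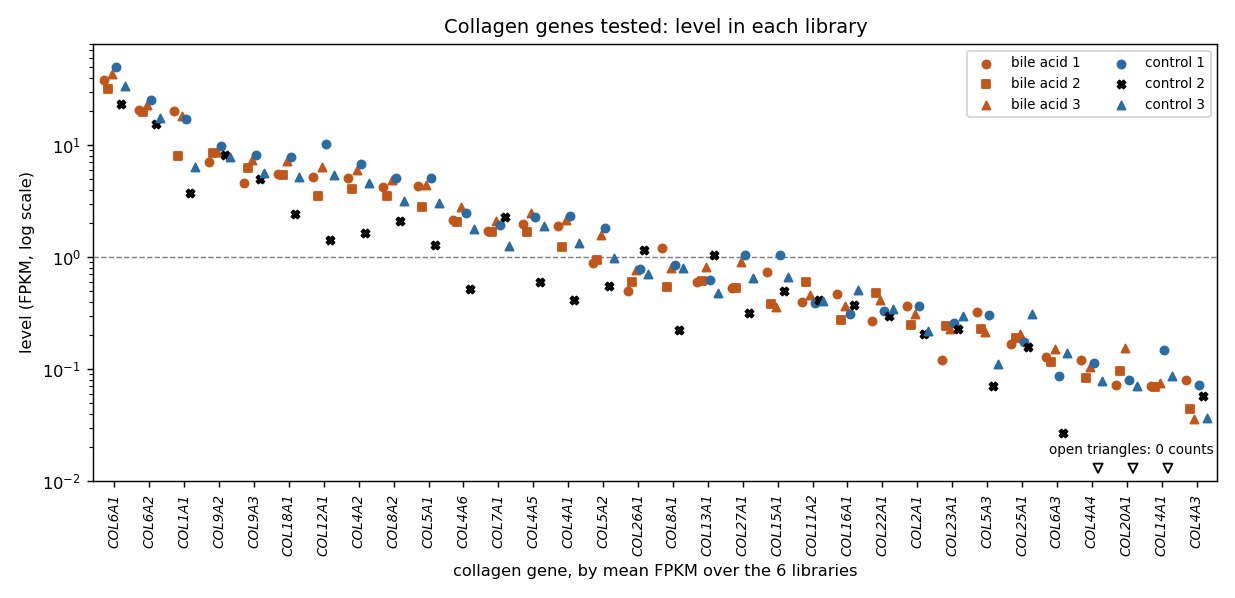
Level of the 32 collagen genes that passed the filter (vertical axis, FPKM, log scale), ordered by mean level, in bile acid libraries (orange, left) and controls (blue, with control 2 as black crosses, right). The dashed line is 1 FPKM, which separates the 15 expressed from the 17 low genes, and the black crosses lie lowest for most expressed genes.

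Bile acid exposure was not accompanied by a called change in any collagen gene. Of 32 genes tested, 0 had an adjusted p under 0.05 with edgeR, and 0 had an unadjusted p under 0.05. Over all 17743 genes tested the share called was 0%, and 3.31% had an unadjusted p under 0.05. The lowest adjusted p of a collagen gene was 0.911 (edgeR, 3 against 3 libraries). DESeq2 also called 0 collagen genes, with 0 at an unadjusted p under 0.05, against 0.111% of all genes called. In the authors' deposited table, 41 of the collagen genes appear, 31 have an adjusted p, the lowest being 0.977, and 0.129% of its genes pass 0.05. A call at these libraries would need a change beyond their spread: the median SE of the 15 expressed genes was 0.445 on the log2 scale.

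Log2 fold changes with all libraries ran between -0.57 for COL15A1 and 1.09 for COL20A1. They were positive in 20 of 32 collagen genes, 62.5%, against 48.8% of all genes tested. Their median was 0.19, against -0.01 over all genes. Among the expressed genes 12 were positive and 3 negative. In the bulk RNA measured here, a change in RNA per cell and a change in the share of cells that make it cannot be told apart.

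Without control 2 the share of positive values was near that of all genes. The median was -0.02 over 34 collagen genes and 0.01 over all 18274 genes, and 16 collagen genes, 47.1%, were positive, against 50.8% of all genes. Among the expressed genes 6 were positive and 9 negative. The sign differed between both fits in 8 genes: COL6A1, COL18A1, COL4A1, COL4A2, COL4A3, COL5A1, COL5A2 and COL13A1. COL4A6 came after COL1A1 in size of value among expressed genes with all libraries, 0.58 ± 0.49 (log2 fold change ± SE; edgeR, adjusted p = 0.911), and 0.18 ± 0.20 without control 2 (edgeR, adjusted p = 0.889). COL6A1 had 0.11 ± 0.29 with all libraries and -0.10 ± 0.19 without control 2 (edgeR, adjusted p = 0.950 and 0.941). COL7A1 had 0.03 ± 0.26 with all libraries and 0.24 ± 0.21 without control 2 (edgeR, adjusted p = 0.989 and 0.844). The other expressed genes lay between -0.26 and 0.07 without control 2, apart from COL1A1 and COL12A1. All 15 expressed genes had a smaller SE without control 2, with a median of 0.209.

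Again 0 of the collagen genes were called without control 2 (edgeR, lowest adjusted p = 0.628) and 0 had an unadjusted p under 0.05, against 0.00547% of all genes called and 7.98% with an unadjusted p under 0.05. DESeq2 called 0 of them as well, at a lowest adjusted p of 0.542, against 0.979% of all genes called. By its unadjusted p under 0.05, 2 collagen genes were lower in bile acid libraries, COL12A1 and COL15A1, against 2.77% of all genes.

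COL12A1 had a log2 fold change of -0.58 ± 0.27 without control 2 (SE; edgeR, adjusted p = 0.644), and of -0.14 ± 0.60 with it (edgeR, adjusted p = 0.973). Its call depended on the filter: without control 2 and with every gene of at least 1 count kept, edgeR called it (adjusted p = 0.0254). In that fit 392 of 30860 genes were called, and 1 of 41 collagen genes. Bile acid 3, at 93.5 CPM, still lay above control 3, at 77.9 CPM. COL15A1, a multiplexin of basement membrane zones, had 5.71, 2.96 and 2.78 CPM in bile acid libraries and 7.94, 3.86 and 5.11 CPM in controls, and its log2 fold change was -0.77 ± 0.35 without control 2 (SE; edgeR, adjusted p = 0.628).

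**Figure D3:**
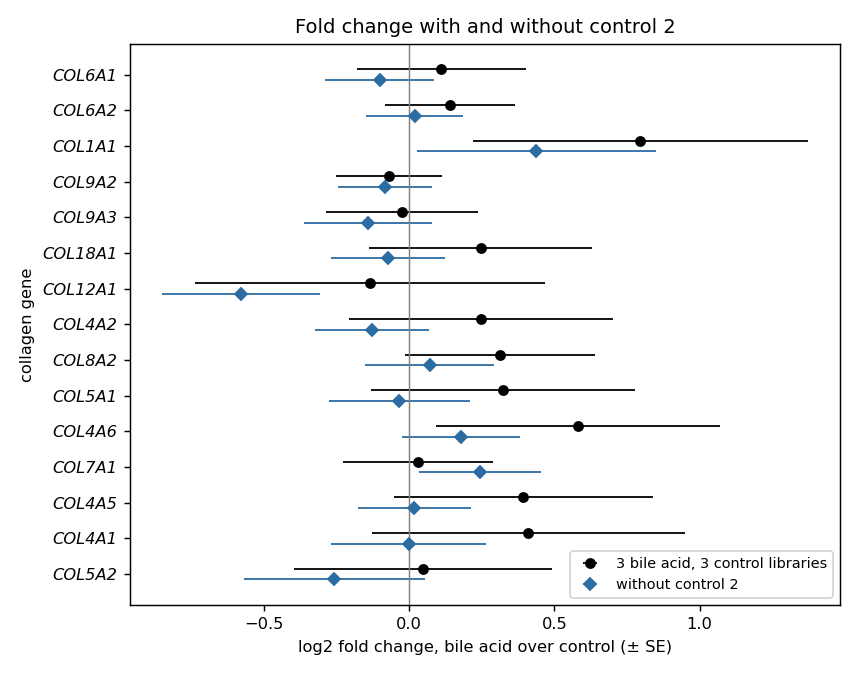
Log2 fold change, bile acid over control, with SE (horizontal axis) for the 15 expressed collagen genes, with all 6 libraries (black circles) and without control 2 (blue diamonds). Most points lie right of 0 with all libraries and gather around 0 without control 2, where the SE are smaller.

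The groups overlapped in all 32 tested genes, and COL6A6, not tested, was the one collagen gene in which they did not. With all libraries 0 collagen genes had every bile acid library above every control, against 5.29% of all genes, and 0 had every one below, against 4.89%. Without control 2, COL11A2 and COL13A1 lay wholly above the controls, against 12% of all genes. COL14A1, COL21A1 and COL23A1 lay wholly below, against 12.9%. Shares of 5.88% and 8.82% of 34 collagen genes are under the background. All but COL13A1, a transmembrane collagen with 4.173, 4.20 and 5.63 CPM in bile acid libraries and 4.169, 7.17 and 3.24 CPM in controls, stayed under 5 CPM in every library.

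Control 2 held the lowest value of most collagen genes. It was the lowest of the 6 libraries in 21 of 32 genes, 65.6%, against 41.8% of all genes, and in 12 of the 15 expressed. All collagen genes together took 0.117%, 0.0907% and 0.131% of counts in bile acid libraries, and 0.149%, 0.0476% and 0.0951% in controls. The bile acid mean of 0.113% ± 0.020 thus lay within the control range, whose mean was 0.0974% ± 0.051 (SD, n = 3 each).

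The departure of control 2 ran with gene length. Its log2 CPM minus the mean of controls 1 and 3 had a Spearman rho of -0.33 with length over all genes tested and -0.62 over the 32 collagen genes, points that share 1 library. Bile acid 2 had a similar rho over all genes, -0.32, but a smaller range: its median over bins of length ran between 0.20 for the shortest and -0.29 for the longest genes, against 0.49 for the shortest and -0.82 for the longest in control 2. Over the collagen genes its rho was -0.26. Collagen genes are long, with a median exonic length of 8695.5 bp against 4414 bp for all genes tested. The median difference was -1.07 for collagen genes and -1.34 for the expressed ones. Over the 9103 genes between 4217 and 19293 bp, the range of the expressed collagen genes, it was -0.36, and over all genes -0.08. In bile acid libraries 1 to 3 the same median over collagen genes was -0.02, -0.19 and 0.17. With the length trend removed from each library, the collagen median log2 fold change was 0.13 with all libraries and 0.01 without control 2. The part of RNA quality or library preparation in the low collagen values of control 2 was not tested.

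**Figure D4:**
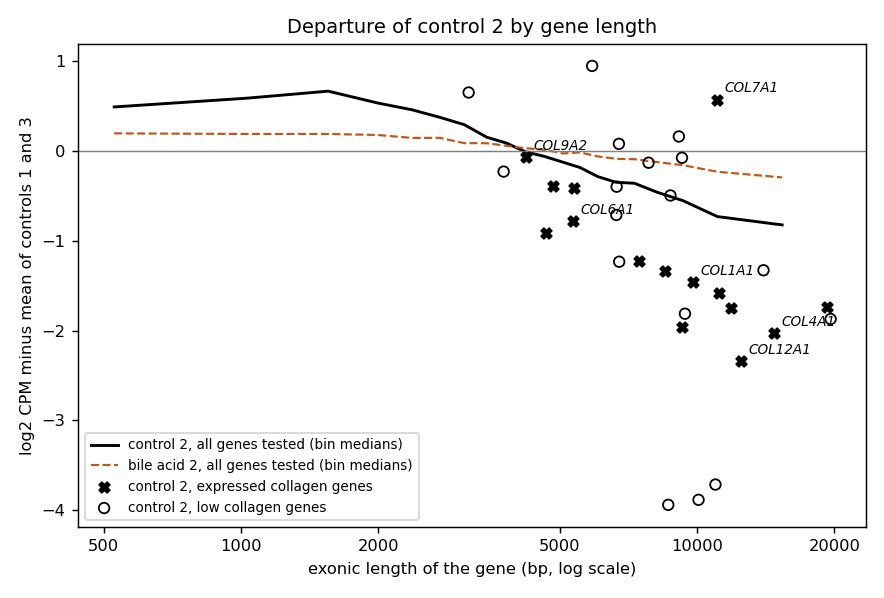
Difference of log2 CPM from the mean of controls 1 and 3 (vertical axis) against exonic gene length (horizontal axis, bp, log scale). The dashed line is bile acid 2 and the solid line control 2 over all genes tested, as medians of bins, crosses are expressed and circles low collagen genes in control 2. Most collagen genes fall below the solid line, and COL7A1 lies above it.

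Genes that make, process and bind collagen were set beside the chains as 4 lists. Of 24 enzymes and chaperones of the endoplasmic reticulum and secretory route, all were tested, 0 were called by edgeR, 15 were positive and the median log2 fold change was 0.05. PLOD2, a lysyl hydroxylase of collagen telopeptides, had 0.57 ± 0.39, FKBP14, a prolyl isomerase, 0.39 ± 0.26, and COLGALT2, a collagen galactosyltransferase, -0.36 ± 0.21 (log2 fold change ± SE; edgeR, adjusted p = 0.911 each). Without control 2 the median of the list was 0.08, and the values were 0.27 ± 0.23 for PLOD2, 0.18 ± 0.15 for FKBP14 and -0.25 ± 0.20 for COLGALT2 (log2 fold change ± SE; edgeR, adjusted p = 0.843, 0.839 and 0.831). With all libraries FKBP14 alone of the list lay wholly above the controls, against 5.29% of all genes, and COLGALT2 alone wholly below, against 4.89%. The summed level of the list was 4430, 4290 and 4160 CPM in bile acid libraries and 4230, 3890 and 3840 CPM in controls, and the bile acid libraries overlapped control 1.

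Of 16 crosslinking and processing genes 13 were tested, 0 were called, and 4 were positive, with a median of -0.06 that was -0.08 without control 2. LOXL1, a lysyl oxidase, had 0.37 ± 0.19, LOXL2 0.65 ± 0.47, and PCOLCE, an enhancer of procollagen C-proteinase, -0.33 ± 0.19 (log2 fold change ± SE; edgeR, adjusted p = 0.911 each). Without control 2 LOXL1 had 0.42 ± 0.17, LOXL2 0.32 ± 0.31 and PCOLCE -0.18 ± 0.15 (edgeR, adjusted p = 0.572, 0.864 and 0.839). Of the genes tested in this list, LOXL1 and FURIN lay wholly above the controls with all libraries, against 5.29% of all genes. PCOLCE and LOXL3 lay wholly below, against 4.89%. Of 16 partner matrix proteins 12 were tested, 0 were called and 11 were positive, with a median of 0.41 that was 0.10 without control 2. SPARC, a collagen-binding glycoprotein, had 187, 140 and 189 CPM in bile acid libraries and 144, 87.8 and 105 CPM in controls. Bile acid 2 lay just under control 1, and the log2 fold change was 0.62 ± 0.24 with all libraries (SE; edgeR, unadjusted p = 0.0374, adjusted p = 0.911) and 0.48 ± 0.18 without control 2 (edgeR, adjusted p = 0.559). THBS1 had 0.79 ± 0.48 and BGN -0.35 ± 0.22 (log2 fold change ± SE; edgeR, adjusted p = 0.911 each), and without control 2 THBS1 had 0.53 ± 0.39 and BGN -0.29 ± 0.18 (edgeR, adjusted p = 0.811 and 0.761).

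Of 12 collagen receptors 9 were tested and 0 were called by edgeR, with a median of 0.25 that was -0.001 without control 2. DDR2, a receptor tyrosine kinase that binds fibrillar collagen, had 88.5, 81.4 and 59.7 CPM in bile acid libraries and 147.5, 65.6 and 129 CPM in controls. All bile acid libraries lay below controls 1 and 3, while control 2 lay within the bile acid range. Its log2 fold change was -0.58 ± 0.32 with all libraries (SE; edgeR, adjusted p = 0.911) and -0.84 ± 0.17 without control 2 (edgeR, adjusted p = 0.182). DESeq2 without control 2 called it lower in bile acid libraries (adjusted p = 0.00433), where it called 0.979% of all genes. ITGA10 had 0.70 ± 0.42 and ITGA1, an integrin chain for type IV collagen, 0.34 ± 0.29 (log2 fold change ± SE; edgeR, adjusted p = 0.911 each). Without control 2 ITGA10 had 0.54 ± 0.38 and ITGA1 0.15 ± 0.23 (edgeR, adjusted p = 0.807 and 0.923).

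Of 8 epithelial markers 5 were tested and edgeR called 0, with or without control 2. KRT8 had 549, 487 and 570 CPM in bile acid libraries and 401, 654 and 325 CPM in controls, and KRT18 had 319, 301 and 291 CPM in bile acid libraries and 201, 658 and 193 CPM in controls. Control 2, the lowest library for most collagen genes, was the highest for both keratins. Without it DESeq2 called both higher in bile acid libraries (adjusted p = 0.0425 for KRT8 and 0.00123 for KRT18), where it called 0.979% of all genes. In edgeR neither was called (log2 fold change 0.57, edgeR adjusted p = 0.364 for KRT8, and 0.64, edgeR adjusted p = 0.196 for KRT18). With all libraries the log2 fold change was 0.22 for KRT8 and, in the opposite direction, -0.21 for KRT18 (edgeR, adjusted p = 0.919 and 0.944). KRT19, CDH1 and EPCAM had 0.16, 0.09 and -0.07 without control 2 (edgeR, adjusted p = 0.899, 0.974 and 0.966) and -0.30, 0.33 and -0.24 with it (edgeR, adjusted p = 0.915, 0.923 and 0.915). Summed over 10 fibroblast markers, COL1A1 included, the level was 322, 193 and 323 CPM in bile acid libraries and 299, 231 and 166 CPM in controls. COL1A1 and THY1 make up most of that sum and went opposite ways in control 2, which was the lowest library for COL1A1, at 42.7 CPM, and the highest for THY1, at 179 CPM. The part of such markers in the collagen values was not tested.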

How the data were processed

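Reads of 150 bp from 6 libraries were processed by the authors with HISAT2 2.0.5, featureCounts and DESeq2 on GRCh38, per the submitters' processing notes. The deposited counts are whole read numbers for each gene, and the authors also deposited FPKM values, normalized counts (a signal, whole reads divided by a size factor) and a comparison with log2 fold changes and p-values, per the file headers. No source used here names the annotation, and gene lengths and coordinates equal GENCODE 29 for 100% of collagen genes. There were 0 unmapped sample columns.

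Counts were tested in edgeR 4.0.16 under R 4.3.3 (quasi-likelihood, TMM, filterByExpr, no covariates), and p-values were adjusted over all genes by Benjamini-Hochberg with a threshold of 0.05. CPM are TMM-scaled. Standard errors are the fold change over the root of F. FPKM served for levels between genes. Alternatives were DESeq2 1.42.0, limma 3.58.1 (voom, and log2(FPKM + 1) or log2(FPKM + 0.1)), other scalings and filters, lowess removal of the length trend (span 0.3), a replicate block, and each library left out. Normalized counts gave whole reads for 100% of values within 0.001, and edgeR called 0 genes on them. These reads are not the same as the deposited counts: 17959 genes were tested on them and 17743 on the counts. The deposited comparison also differs from DESeq2 on the counts, with a COL13A1 log2 fold change of 0.099 against -0.053. Which reads it rests on was not established.

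Members and lists were chosen with earlier results of these data known. Named genes are the expressed collagen genes, any called one, and the 3 smallest p of each of 4 lists; other genes were named after their values were seen. Fits were tested on simulated data whose spread per gene was set smaller than in these libraries, so that test checks the code and not the power reached here.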

Additional observations from a re-analysis of the deposited data

How the results depend on the processing

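Under 20 alternatives for each of the 15 expressed collagen genes, 300 in all, with all libraries or 1 left out, no gene passed the threshold, and the direction was kept in 274 and turned in 26. COL12A1 turned to 0.20 with limma-voom, 0.21 with a replicate block, 0.037 with the block and length removal, 0.086 with limma on log2(FPKM + 1) with either filter and 0.18 on log2(FPKM + 0.1). COL9A3 turned to 0.01 with no filter, COL5A2 to -0.003 and COL7A1 to -0.22 with length removal, and COL7A1 to -0.10 with the block and length removal. Leaving out 1 library gave -0.58 to 0.58 for COL12A1, 0.44 to 1.64 for COL1A1, 0.18 to 1.04 for COL4A6, 0.018 to 0.73 for COL4A5, 0.07 to 0.70 for COL8A2, 0.019 to 0.375 for COL6A2, -0.073 to 0.68 for COL18A1, -0.002 to 1.03 for COL4A1, -0.13 to 0.71 for COL4A2, -0.034 to 0.86 for COL5A1, -0.26 to 0.59 for COL5A2, -0.10 to 0.425 for COL6A1, -0.17 to 0.24 for COL7A1, -0.13 to 0.031 for COL9A2 and -0.18 to 0.21 for COL9A3. The cause was not tested. The collagen median ranged between -0.02 without control 2 and 0.57 without control 1, about its value of 0.19, so it depends on single controls. Genes called numbered 19 with DESeq2 and numbered 0 to 1 when 1 library was left out. Without control 2 genes called numbered 1, 158 with DESeq2, 0 by library size alone, 392 of 30860 with no filter, 0 with length removal and 351 with a replicate block. That block left bile acid 2 without a control of its number, so it compared only bile acid 1 and 3 with controls 1 and 3. Collagen genes called without control 2 numbered 1, COL12A1, with no filter. Same-numbered libraries had Pearson correlations of 0.307, 0.382 and 0.098, under 0.1 for the third, so the numbers were not taken as pairs. Libraries of unlike number ran from -0.413 to 0.189, and bile acid 3 correlated best with control 1. Over the collagen genes alone the same-numbered values were 0.247, 0.348 and 0.224, each the highest for both of its libraries. With the block 0 collagen genes were called, the median was 0.25, and COL1A1 alone had an unadjusted p under 0.05 (0.0102, edgeR adjusted p = 0.756, log2 fold change 0.98). With silence set at 0 counts, 3 genes were silent. Genes near the floor are limited by depth.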
